A study of Sus scrofa with 8 samples.

Results

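Genes for the subunits of mitochondrial oxidative phosphorylation, with some of their assembly factors, were examined in cultured islets of neonatal pigs. A gene was a member when the platform annotation gave its probe set a single symbol that starts with NDUF, SDHA to SDHD, UQCR, COX and a digit, or ATP5, or that is CYC1 or CYCS. This rule took 66 of 6765 genes with a symbol, read by 85 of 23999 probe sets other than controls. Where several probe sets read a gene, the one with the highest mean log2 intensity over the 8 arrays stood for it. The rule used no difference between the ages. Complex I had 35 members, complex II 5, complex III 2, cytochrome c 1, complex IV 9 and complex V 14. No probe set carried the symbol CYC1, and the mitochondrially encoded subunits were not analysed here, so every member is a nuclear gene.

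The respiratory chain passes electrons from NADH at complex I and from succinate at complex II to ubiquinone, then through complex III and cytochrome c to oxygen at complex IV. Complexes I, III and IV pump protons across the inner mitochondrial membrane, and complex V, the ATP synthase, uses their return to make ATP. In beta cells the ATP made from glucose closes potassium channels of the plasma membrane, which leads to calcium entry and the release of insulin.

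Pancreata of male Duroc/Large white cross pigs were chopped and digested with collagenase, and the tissue was kept for 7 days in culture, in a medium that held glucose, isobutylmethylxanthine and nicotinamide. RNA of 4 preparations labelled 3-day-old and of 4 labelled 7-day-old was hybridised to the Affymetrix porcine GeneChip, 1 array for each numbered pig. All groups shared this culture, so the ages compared are those of the donor pigs and not of the islets at harvest. The islets were not sorted, and a lower value in bulk tissue can mean fewer cells of a type or less RNA per cell, which cannot be told apart. The question was how the transcripts differ between islets of the 2 donor ages.

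Each value is a linear intensity, the brightness of a probe set after each array had been scaled to the same trimmed mean. Array medians lay between 171.6 and 178.5, and precision is limited by the small number of arrays. All 66 members entered the test, 65 of them at or above the 20th percentile of the array on all 8 arrays and 62 at or above the array median on all 8. INS, GCG, SST and PPY, the islet hormone genes, were bright on every array, with INS at 24649 ± 2214 in the 3-day-old and 23694 ± 4216 in the 7-day-old arrays (mean intensity ± SD, n = 4 each).

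Directions follow the deposited age labels. They are opposite to the direction the study names for its genes. MMP3, a matrix metallopeptidase, had a mean of 2266 on the 3-day-old and 310.8 on the 7-day-old arrays, while NEUROD1, which drives endocrine gene expression, had 276.7 and 726.1. The sources used here do not settle which labels are exchanged, and if those of the arrays are, all signs below turn while sizes, errors and p-values stay.

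The members differed little between the labels. Of the 66, 3 were called higher in the 7-day-old arrays (NDUFA5, NDUFB1 and NDUFC1, all accessory subunits of complex I), 1 was called lower (NDUFA4), and 62 did not pass the test. A gene was called when its adjusted p in limma, taken over all 21571 probe sets tested, was under 0.05. The members' share called was 6.06%, beside 10.7% of all probe sets tested and 12.2% of the genes with a symbol. The share called higher was 4.55% against 5.21% of all probe sets, and the share called lower 1.52% against 5.47%. The groups did not overlap in 14 members, 6 with all 7-day-old arrays above and 8 with all below, which is 21.2% of the members beside 21.2% of all probe sets. Over the genes with a symbol this share was 24.7%. Of the 14, 11 belonged to complex I, which is 31.4% of its members, against 7.14% in complex V. The difference between complexes was not tested. Those not called in complex I were NDUFA1 and NDUFB5 above, and NDUFA2, NDUFA8, NDUFA13, NDUFB10, NDUFS3 and NDUFV1 below.

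The median log2 difference over the members, 7-day-old minus 3-day-old, was -0.02, with 30 members positive and 36 negative. Over all probe sets tested it was -0.0008. The median size of the difference, without its sign, was 0.14 for the members and 0.27 for all probe sets. Most members are bright, and bright probe sets had smaller errors. Among the 10460 probe sets at or above the array median on all 8 arrays, 13.7% were called and the median size was 0.19. The median standard error was 0.09 for the members, 0.12 for these bright probe sets and 0.17 for all. For 55 of the 66 members the 95% interval of the difference lay wholly within a 1.5-fold change either way, and for 18 within 1.2-fold. The 11 members with a wider reach were NDUFA1, NDUFA4, NDUFV1, NDUFAF2, SDHAF2, COX10, COX7A1, COX7C, COX8H, ATP5I and ATP5J.

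**Figure D1:**
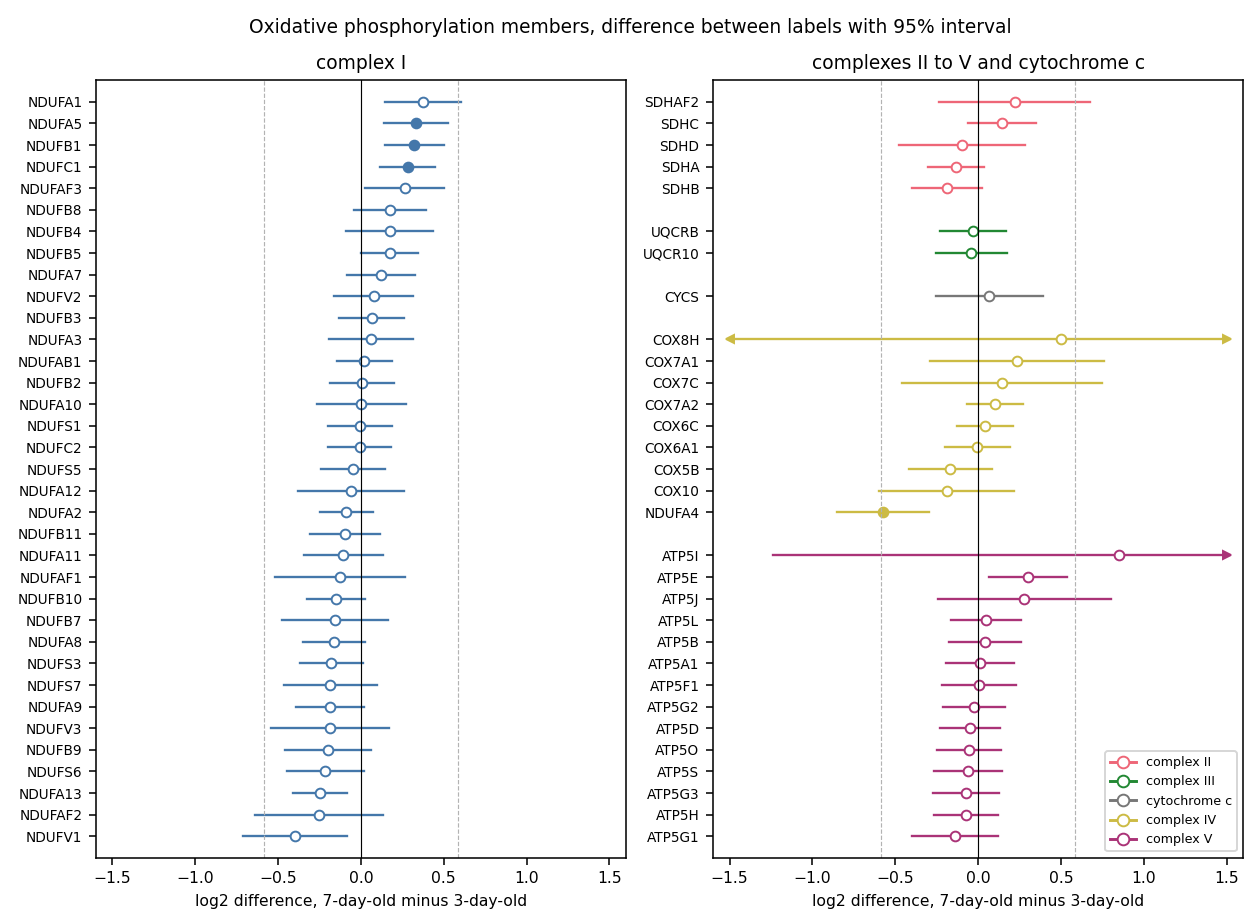
Log2 difference between the labels (7-day-old minus 3-day-old, horizontal axis) for each of the 66 members, grouped by complex, with its 95% interval from limma as a line; filled points are members called, arrowheads mark intervals that run past the axis, and dashed lines mark a 1.5-fold change. Of the filled points, 3 lie above 0 in complex I and 1, NDUFA4, lies below 0 in complex IV, and most intervals include 0.

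**Figure D2:**
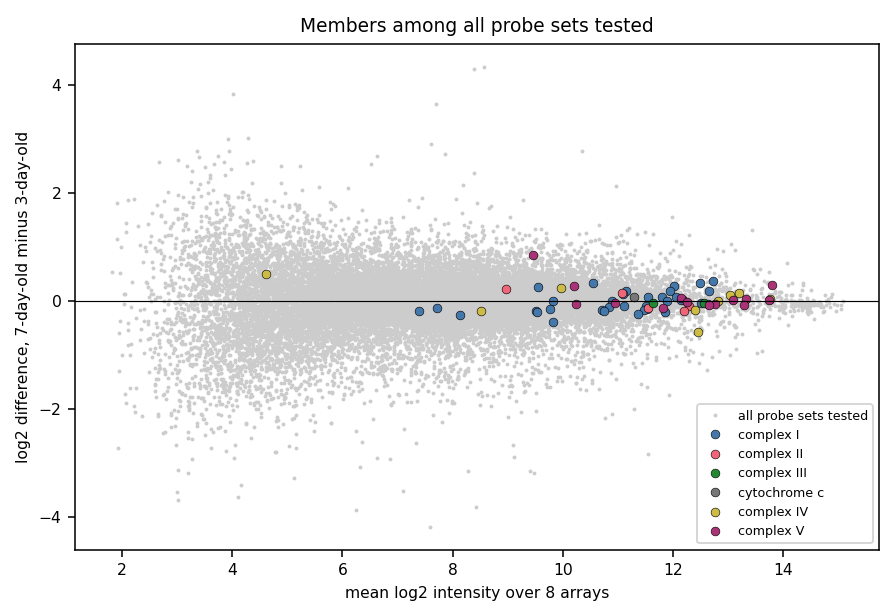
Mean log2 intensity over the 8 arrays (horizontal axis) against the log2 difference, 7-day-old minus 3-day-old (vertical axis), for all 21571 probe sets tested in grey and the 66 members in the colour of their complex. The members lie mostly at high intensity and close to a difference of 0, with COX8H the dimmest.

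NDUFA4 had the lowest difference of all members and was the only one called lower. Its protein was first purified with complex I, which gave the gene its symbol, and is now placed in complex IV, where it is counted here. The intensities were 6283, 6992, 7612 and 6746 on the 3-day-old arrays and 3928, 4793, 5415 and 4522 on the 7-day-old arrays. Every 7-day-old array lay below every 3-day-old array. The log2 difference was -0.57 (SE 0.12, 95% interval -0.85 to -0.29, adjusted p = 0.027), a level 0.672 times that of the 3-day-old arrays.

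NDUFB1, a small accessory subunit in the membrane arm of complex I, read 5093, 5096, 5048 and 5499 on the 3-day-old arrays and 6773, 6726, 6266 and 6186 on the 7-day-old arrays. The groups did not overlap, although the highest 3-day-old array, replicate 4, stood apart from its group. The log2 difference was 0.32 (SE 0.08, adjusted p = 0.039). NDUFA5, an accessory subunit of the arm that reaches into the matrix, read 1404, 1297, 1366 and 1272 against 1696, 1535, 1727 and 1762. Again all 7-day-old arrays were the higher ones, by a log2 difference of 0.33 (SE 0.08, adjusted p = 0.045). NDUFC1, another small accessory subunit of the membrane arm, read 3790, 3874, 3657 and 3688 against 4797, 4502, 4482 and 4463. Their arrays lay closest together among the called members, with a pooled SD of 0.04 on the log2 scale, and the log2 difference was 0.28 (SE 0.07, adjusted p = 0.049).

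The size of these differences moved little when an array was left out, but the calls did. Without 1 array, NDUFA4 ranged from -0.65 to -0.49 with adjusted p from 0.028 to 0.071, and it passed in 2 of 8 such fits, those without 3-day-old replicate 1 and without 7-day-old replicate 3. NDUFB1 stayed between 0.30 and 0.35 and passed in 1 of 8, that without 3-day-old replicate 4. NDUFA5 stayed between 0.31 and 0.37 and NDUFC1 between 0.26 and 0.30, and neither passed in any of the 8. The share of all probe sets called was also lower in these smaller fits, between 4.67% and 8.60%.

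**Figure D3:**
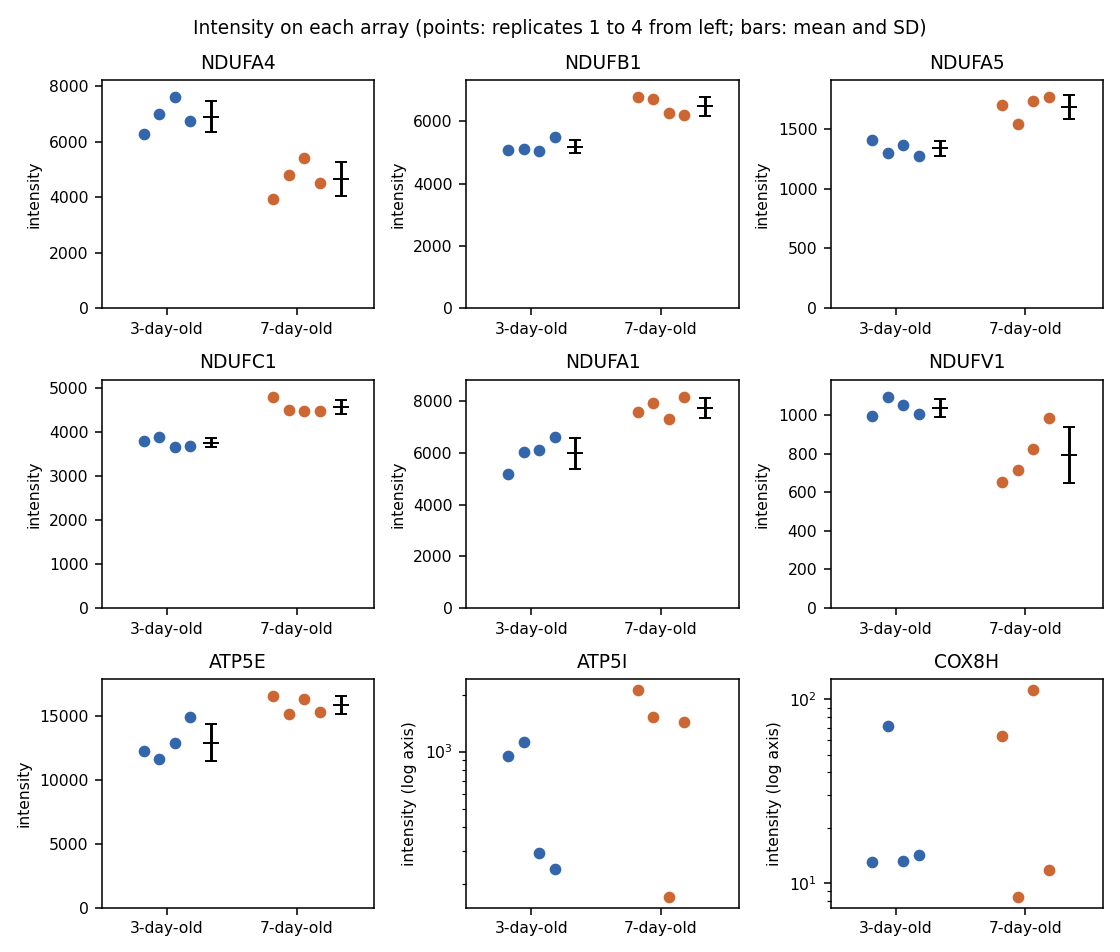
Intensity of 9 members on each of the 8 arrays, 1 panel per gene, with the 4 arrays of each label as points in the order of replicates 1 to 4 and, on the linear panels, the mean and SD beside them; the panels of ATP5I and COX8H have a log axis and no mean. NDUFA4 and NDUFV1 lie lower on all 7-day-old arrays, the other linear panels show all 7-day-old arrays higher, and ATP5I and COX8H have high and low arrays under both labels.

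In complex I, 15 members were positive and 20 negative, with a median of -0.05 and 3 of 35 called. The 5 core subunits measured, which belong to the conserved arm that takes electrons from NADH to ubiquinone, had 0 called and a median of -0.18, while the 27 accessory subunits had 3 called and a median of -0.0085. The difference between core and accessory subunits was not tested. Among the core subunits NDUFV1, which binds NADH and the flavin, read 995.2, 1097, 1053 and 1006 on the 3-day-old arrays and 655.4, 715.6, 827.8 and 987 on the 7-day-old arrays. Its groups did not overlap, though its highest 7-day-old array, at 987, came close to the lowest 3-day-old one, at 995.2, and its difference of -0.40 (SE 0.14) missed the threshold with adjusted p = 0.11. NDUFS3 and NDUFS7 were both at -0.18, NDUFS1 was at -0.0046 and NDUFV2 at 0.08, none of them called.

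Of the accessory subunits that were not called, NDUFA1 came closest. It is needed for the assembly of complex I, and read 5181, 6053, 6119 and 6608 on the 3-day-old arrays against 7578, 7941, 7299 and 8175. All 7-day-old arrays were higher, by 0.38 (SE 0.10, adjusted p = 0.052). A dimmer probe set of the same gene went the other way, with 2617, 3929, 2716 and 2745 against 2363, 2103, 2316 and 1542, and a difference of -0.53 (adjusted p = 0.12). The mean of both probe sets differed by -0.08, so the direction of NDUFA1 depends on the probe set. NDUFA13, also known as GRIM-19, read 2972, 2837, 2820 and 2947 against 2365, 2461, 2419 and 2513. It was lower on every 7-day-old array, with a difference of -0.25 and an adjusted p of 0.067. The 3 assembly factors of complex I were at -0.13 (NDUFAF1), -0.25 (NDUFAF2) and 0.26 (NDUFAF3), none of them called, and NDUFAF1 was at 0.07 when its probe sets were averaged.

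Complex II, succinate dehydrogenase, had 0 of 5 members called and a median of -0.10. SDHA, the flavin-bearing catalytic subunit, read 3104, 3021, 3235 and 3228 against 2843, 2817, 3009 and 2805. All 7-day-old arrays were lower than all 3-day-old ones, yet the difference was small (-0.13, SE 0.07, adjusted p = 0.28). SDHB, the iron-sulfur subunit, was at -0.19, while its dimmer probe set, above the array median on all 8 arrays, was at 0.30, neither of them called. The membrane anchors SDHC and SDHD were at 0.14 and -0.10. SDHAF2, which attaches the flavin to SDHA, was at 0.22 with an adjusted p of 0.51. A second and dim probe set of SDHAF2, below the array median on all 8 arrays, read 127.2, 160.6, 168.9 and 157.8 against 94.64, 55.38, 100.9 and 90.74. It was called lower, at -0.88 (SE 0.20, adjusted p = 0.036), the opposite sign to the brighter probe set. The median of complex II depended on single arrays: it was 0.02 without 7-day-old replicate 2 and -0.15 without 3-day-old replicate 2.

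Complex III was represented by UQCR10 and UQCRB, small subunits outside its catalytic core, at -0.04 (95% interval -0.26 to 0.17) and -0.03 (-0.23 to 0.17). Neither was called. CYCS, the somatic cytochrome c, read 2215, 2322, 2698 and 2580 on the 3-day-old arrays and 2435, 2764, 2091 and 3074 on the 7-day-old arrays. The 7-day-old group held both the lowest and the highest array, and the difference was 0.07 (95% interval -0.25 to 0.39, adjusted p = 0.79).

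In complex IV, cytochrome c oxidase, NDUFA4 was the 1 member of 9 that was called, and without it the other 8 had a median of 0.07. Complex IV uses different isoforms of some subunits in heart and skeletal muscle than in most other tissues. Of the isoforms of most tissues, COX6A1 was at -0.0060 (95% interval -0.20 to 0.19) and COX7A2 at 0.10 (-0.07 to 0.27). Of the muscle isoforms, COX7A1 read 683.7, 963.9, 1076 and 1011 against 910.7, 1083, 882.2 and 1586. Its groups overlapped and its difference was 0.24 (SE 0.23, adjusted p = 0.55). COX8H read 13.04, 71.62, 13.1 and 14.24 against 63.15, 8.358, 112.6 and 11.74. It reached the 20th percentile on 3 of the 8 arrays only, with both labels represented, and its difference of 0.50 had an interval from -1.77 to 2.77. Of 7 muscle markers 2 were called lower, TAGLN and RGS5, which are genes of smooth muscle and pericytes. The share called was 28.6%, beside 10.7% of all probe sets tested. All 7 summed to 3272 to 4250 in the 3-day-old and 2098 to 2706 in the 7-day-old arrays, and the brightest were RGS5, TAGLN and ACTA2. CKM, a gene of heart and skeletal muscle, was dim and not called, with means of 103.5 and 88.83 and a difference of -0.21 (adjusted p = 0.40). The part of muscle cells in the values of these isoforms was not tested. COX10, an enzyme of the path to heme A of complex IV, was at -0.19, and COX5B, COX6C and COX7C were at -0.17, 0.04 and 0.15.

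Complex V had 0 of 14 members called and a median of -0.0093. In its F1 part, which holds the catalytic sites, ATP5A1 and ATP5B had narrow intervals around 0, at 0.01 (95% interval -0.19 to 0.22) and 0.04 (-0.18 to 0.26). ATP5E, the epsilon subunit of the same part, read 12270, 11625, 12891 and 14943 against 16577, 15154, 16395 and 15388. All 7-day-old arrays were higher, by 0.30 (SE 0.10, 95% interval 0.07 to 0.53), with an adjusted p of 0.099. ATP5G1, ATP5G2 and ATP5G3 encode the same mature c subunit of the membrane ring and were at -0.14, -0.02 and -0.07. ATP5I, subunit e of the membrane part, had the highest difference of all members, 0.85, and one of the widest errors (SE 0.90, adjusted p = 0.59). It read 946.9, 1124, 291.8 and 240.2 on the 3-day-old arrays and 2117, 1526, 170.6 and 1440 on the 7-day-old arrays. Low arrays occurred under both labels, the lowest of all being 7-day-old replicate 3. ATP5J, coupling factor F6 of the stalk, read 745.9, 1434, 1383 and 890.7 against 1319, 1313, 1417 and 1166, and was at 0.28 (SE 0.22).

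The spread between arrays of one label differed widely between members. The SD of log2 intensity, pooled over the labels, was 1.55 for COX8H and 1.43 for ATP5I, then 0.40 for COX7C, 0.34 for COX7A1 and 0.34 for ATP5J. At the other end it was 0.03 for NDUFA2, 0.04 for NDUFA13 and 0.04 for NDUFAB1, the acyl carrier protein of complex I. In 13 members a further probe set was tested beside the one that stood for the gene. Of the 16 further probe sets of these 13 genes, 9 had the same sign and 7 the opposite one, and that of SDHAF2 alone was called.

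Members also deviated together on single arrays. The median deviation of the members from their own 8-array means was -0.07, 0.0088, 0.02 and 0.09 on the 3-day-old arrays and -0.02, -0.03, 0.03 and -0.02 on the 7-day-old arrays. The 3-day-old arrays thus held both the lowest and the highest median, replicate 1 and replicate 4. Replicate 4 was above the mean in 53 of 66 members and the highest of all arrays in 18, and replicate 1 was the lowest of all in 19. Over all probe sets tested the array medians ran only from -0.0007 to 0.04. By complex, replicate 4 was the highest 3-day-old array in all 5 complexes, and replicate 1 the lowest in each except complex II. The difference between 3' and 5' control probe sets of GAPDH, a sign of RNA integrity and labelling, lay between 1.06 and 1.25 (log2) on the 3-day-old and between 0.72 and 1.23 on the 7-day-old arrays. That of actin lay between 1.13 and 1.42 and between 1.25 and 1.49. Its highest 3-day-old array was replicate 4 (1.42, the others up to 1.19), and 7-day-old replicate 3 was higher still (1.49). For GAPDH the highest 3-day-old array was replicate 1 (1.25) and not replicate 4. For EF1a, another control gene, 3-day-old replicates 2 and 4 shared the highest value of their label. The controls thus did not all single out 3-day-old replicate 4. The part of RNA integrity or labelling in the members' values was not tested.

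**Figure D4:**
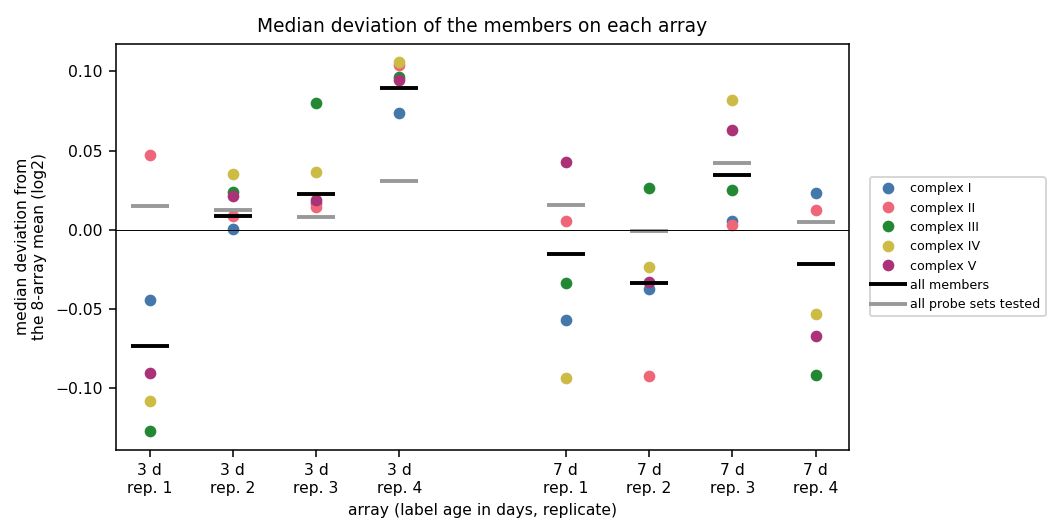
Median deviation from the 8-array mean (log2, vertical axis) of the members of each complex on each array (horizontal axis, label and replicate), with black bars for all 66 members and grey bars for all probe sets tested. The 3-day-old arrays span the range of the members from -0.07 to 0.09, and the 7-day-old arrays lie between.

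Other genes of the organelle were compared by lists. Over the whole table, 10.7% of the probe sets tested and 12.2% of the genes with a symbol were called. Of 7 genes for mitochondrial biogenesis none was called, and the median was -0.07. PPARGC1A, a coactivator of mitochondrial genes, read 600.8, 850.6, 791.3 and 820.3 against 446.4, 396.5, 541.9 and 655.2. The groups overlapped, and the difference of -0.60 had an adjusted p of 0.083. TFAM, which packages and transcribes mitochondrial DNA, was at 0.0022. Of 14 further assembly factors 1 was called (7.14%), ECSIT, which takes part in the assembly of complex I. It read 655.6, 605.5, 662.3 and 620.4 against 489.7, 458.7, 494.7 and 430.1, with no overlap, and was lower by a difference of -0.44 (adjusted p = 0.020). Without 1 array it passed in 6 of 8 fits.

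Of 12 carriers, pores, uncouplers and related kinases (CKMT1A, CKMT2 and AK3) none was called, and the median was 0.03. In this list 6 genes were positive and 6 negative. The largest difference was that of UCP3, 1.11 (SE 0.56, adjusted p = 0.24), which reached the 20th percentile on 1 array only. CKMT1A came closest to the threshold, at 0.50 (adjusted p = 0.060). The phosphate carrier SLC25A3, which supplies the ATP synthase, was at -0.28 (adjusted p = 0.081). The adenine nucleotide translocases SLC25A4, SLC25A5 and SLC25A6 were at 0.24, 0.06 and -0.22. Of 9 genes for electron supply to the chain and for related redox steps, 1 was called (11.1%). This was GPD2, the mitochondrial glycerol-3-phosphate dehydrogenase of the glycerol phosphate shuttle, which was higher. It read 74.12, 69.29, 51.77 and 76.4 against 101.7, 92.3, 107.6 and 105.7, a difference of 0.60 (adjusted p = 0.036). The groups did not overlap, but the level was low and the call held in 2 of 8 fits without an array.

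Of 18 genes of protein import, 2 were called higher and 1 lower, with a median of 0.07. The share called was 16.7%, beside 10.7% of all probe sets tested and 12.2% of the genes with a symbol. TOMM22, a receptor of the outer membrane, read 1519, 1664, 1374 and 1679 against 2441, 2321, 2304 and 2124. It was higher by 0.56 (adjusted p = 0.015), with no overlap, and passed in 8 of 8 fits without an array. TOMM7, a small subunit of the same pore complex, was higher by 0.31 (adjusted p = 0.037) and passed in 0 of 8. TIMM8A, a chaperone of the intermembrane space, was at -0.57 (adjusted p = 0.023) and passed in 4 of 8. Of 58 mitochondrial ribosomal proteins, 3.45% were called, and the median was -0.03. MRPL24 was higher (0.40, adjusted p = 0.033) and MRPL32 lower (-0.49, adjusted p = 0.033). Each passed in 1 of 8 fits without an array.

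Markers of several cell types differed between the labels. Of 12 endocrine markers 6 were called higher in the 7-day-old arrays (CHGB, SCG2, SCG3, PCSK1, PCSK2 and NEUROD1) and none lower, with a median of 0.43. This share of 50% stands beside 10.7% of all probe sets tested and 12.2% of the genes with a symbol. The hormone genes were not called, with INS at -0.07, GCG at -0.19, SST at 0.08 and PPY at 0.19, nor were CHGA (0.27) and SCG5 (0.34). Of 10 fibroblast and stellate markers 4 were called lower (40%), with a median of -0.66, and of 10 endothelial markers 4 (40%), with a median of -1.02. Without 1 array these counts ranged from 4 to 6 for the endocrine, from 2 to 5 for the fibroblast and stellate and from 2 to 4 for the endothelial markers. COL1A2, PDGFRB and SCG2 each passed in 1 of 8 such fits and CLDN5 in 2, while DCN, THY1, PECAM1, CHGB, SCG3, PCSK2 and NEUROD1 each passed in 8. TIE1, also counted among the endothelial calls, passed in 8 too. It read 60.03, 50.37, 53.06 and 70.31 against 2.741, 9.671, 3.786 and 8.821. TIE1 reached the 20th percentile on the 3-day-old arrays alone, so it was tested only through the label where it was high, and its call is no support. Duct markers had 2 of 8 called lower (25%), acinar markers 1 of 5 (20%), and leukocyte and erythroid markers none of 7 and none of 2. All 7 leukocyte markers were negative, with a median of -0.75, but the median SE was 0.46. Several were near the floor, with PTPRC and CD4 at the 20th percentile on 1 array only, so these markers were poorly measured. The summed intensity of the endothelial markers ran from 1779 to 2279 on the 3-day-old and from 733.5 to 925.8 on the 7-day-old arrays, that of the fibroblast and stellate markers from 56382 to 72328 and from 42355 to 47682. Neither pair of ranges overlapped. The brightest fibroblast and stellate markers, VIM, SPARC and FN1, make up most of their sum. They were lower but not called (adjusted p = 0.064, 0.059 and 0.10). The part of cell composition in the members' values was not tested.

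**Figure D5:**
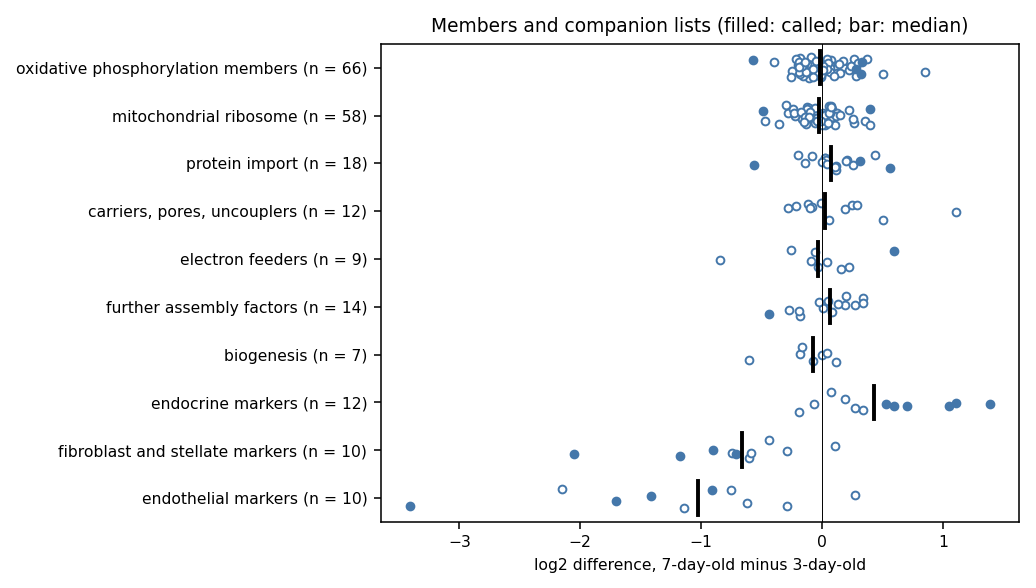
Log2 difference between the labels (7-day-old minus 3-day-old, horizontal axis) of each measured gene of the members, of 6 lists of other mitochondrial genes and of 3 lists of cell type markers; filled points are genes called and black bars are medians. The medians of the mitochondrial lists lie between -0.07 and 0.07, those of the endocrine, fibroblast and stellate, and endothelial markers at 0.43, -0.66 and -1.02.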

How the data were processed

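RNA of islets from 4 pigs labelled 3-day-old and 4 labelled 7-day-old was hybridised to porcine GeneChips of Affymetrix, 1 for each pig. The deposited values are linear intensities for 24123 probe sets. The authors had scaled every array to a common mean, taken after removing 2% of the values at both ends, as the values themselves show. Which software summarised the probes is not given in the sources consulted. An additional round of amplification was used where little cRNA was available, for samples that these sources do not name. Both steps can compress or shift single probe sets.

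Values under 1 were set to 1 before log2 was taken. Probe sets at or above the array's 20th percentile in 1 array or more were tested, without the controls. Symbols came from the platform annotation. All 66 members had an Entrez ID in the RefSeq table, and 2 probe sets with several symbols were left out. Of the members' 85 probe sets, 82 were tested.

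A linear model with moderated variances (limma 3.58.1 under R 4.3.3, functions lmFit then eBayes) compared the labels, after a check on simulated data. It had no covariates and was two-sided, with Benjamini-Hochberg adjustment over all probe sets tested and a threshold of 0.05. Intervals are 95% intervals of that fit. The p-values measure the spread between these arrays. Summaries used Python 3.11.15, numpy 2.4.6, pandas 2.3.3 and matplotlib 3.10.9. Members, lists and tests were chosen with earlier results of these data known. Named were, per complex, up to 5 called members or the 2 with the largest difference, the isoform pairs of complex IV, CYCS, members whose probe sets disagree, and up to 3 called genes of each companion list or 1 where none was called. Genes printed beyond this rule, such as NDUFA1, NDUFV1, ATP5E and the subunits of complexes II and V, were chosen after their values were seen. The alternatives were a filter at the 50th percentile in 4 or more arrays (the stricter filter), testing with no filter, the methods' t-test, an intensity trend with robust variances, median centring, quantile normalization, array quality weights, an offset of 16, averaging the probe sets of a gene, structural subunits alone, the replicate block and each array left out.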

Additional observations from a re-analysis of the deposited data

Results flagged for a closer look

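In 11 of 132 tests (66 members, 2 labels of 4 arrays each) the highest or lowest array stood far from the other 3 of its label. The measure was Dixon's ratio of log2 values, which about 1 in 20 sets of independent normal values would pass. Members deviated together on single arrays, so the tests were not independent and the count cannot be set against that rate. The 11 cases included ATP5I on 7-day-old replicate 3 (intensity 170.6, the others 1440 to 2117) and COX8H on 3-day-old replicate 2 (71.62, the others 13.03 to 14.24). In complex I they were NDUFA2 on 3-day-old replicate 3 (3068), NDUFB1 on 3-day-old replicate 4 (5499) and NDUFC1 on 7-day-old replicate 1 (4797). In complex II they were SDHAF2 on 7-day-old replicate 1 (635.2) and SDHB on 7-day-old replicate 3 (4773), and in complex III UQCR10 on 3-day-old replicate 1 (2843) and on 7-day-old replicate 4 (2940). In complex V they were ATP5G3 on 7-day-old replicate 3 (10442) and ATP5S on 7-day-old replicate 1 (1288). Of these genes, NDUFB1 and NDUFC1 were among the 4 members called.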

How the results depend on the processing

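No called member changed sign under any alternative, and NDUFA4 passed in all 9 alternatives other than the replicate block and the fits without an array. With an intensity trend and robust variances 8 members were called (5 higher, 3 lower; 6 in complex I, 1 in complex V), beside 3491 probe sets in all (12.1% and 16.2%), and with the stricter filter also 8 (5 higher, 3 lower; 6 in complex I, 1 in complex V) of 64 tested, beside 27.0% of all probe sets. Both added ATP5E, NDUFA1, NDUFA13 and NDUFV1. The methods' t-test called 7 (5 higher, 2 lower; 6 in complex I), a share of 10.6% beside 9.85% of all probe sets. Median centring called 2 (1 higher; 1 in complex I; 10.5% of all probe sets), and no filter 1, NDUFA4 (0 higher; 0 in complex I; 8.03% of all), with 9 members at an unadjusted p under 0.05 in each. The cause was not tested. With the replicate block, 0 probe sets and 0 members were called (0 higher, 0 lower, 0 in complexes I and IV), 8 members and 5265 probe sets having an unadjusted p under 0.05. Arrays with the same number did not all deviate together (correlations of residuals from -0.013 to 0.0049 over all probe sets, and 0.16, -0.51, 0.18 and 0.05 for replicates 1 to 4 over the members). The labels only number the pigs and name no pairing. Correlations from so few arrays cannot exclude a shared batch, so the block fit stands as an alternative. Without 1 array, the probe sets called ranged from 1008 to 1854 and the members from 0 to 2 (0 to 2 higher, 0 to 1 lower, 0 to 1 in each of complexes I, IV and V), with the median difference of the members from -0.04 to -0.0020 and that of complex II from -0.15 to 0.016. Counting NDUFA4 with complex I, chosen after seeing the data, left 0 called in complex IV. Averaging the probe sets of a gene turned the sign of 5 members, none of them called (NDUFA1 to -0.08, SDHB to 0.05, SDHAF2 to -0.33, NDUFAF1 to 0.07 and ATP5S to 0.05). The number of arrays limits what can be called.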
